A study of Mus musculus with 4 samples.

Results

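The replication-dependent histone genes encode the core histones H2A, H2B, H3 and H4 that package newly copied DNA. They were taken by gene symbol (*H2ac*, *H2bc*, *H3c* or *H4c* followed by a digit), which selected 64 of the 56884 genes in the count tables. There were 20 H2A, 19 H2B, 12 H3 and 13 H4 genes. GENCODE M39 lists 62 of them as protein-coding and 2 as pseudogenes. The transcripts came from single nuclei of the medial neocortex of embryonic mice at E16.5, a late stage of cortical neurogenesis, of transgenic strains on a C57BL/6J background, a common inbred strain. Controls carried *Sst-Cre* and the tdTomato reporter (*Sst-Cre/tdTomato*), and Dnmt1 KO embryos carried, in addition, loxP-flanked *Dnmt1* alleles (*Sst-Cre/tdTomato/Dnmt1 loxP2*). Cre was driven from the somatostatin locus, so *Dnmt1*, which encodes DNA methyltransferase 1, was a target for deletion only in cells that express somatostatin, which are postmitotic interneurons and not the dividing cells of the cortex. Each genotype had 2 libraries, numbered as replicates in the labels. Control replicate 2 formed batch 2 with 2 sublibraries, and the other libraries formed batch 1 with 8 sublibraries each.

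A cell needs large amounts of core histones while it copies its genome. The genes are mostly short, lack introns and lie in clusters, and their mRNAs end in a conserved stem-loop in place of a poly(A) tail. The stem-loop is bound by SLBP, the pre-mRNA is cut by a complex guided by the U7 RNA, and the mRNA is degraded when DNA synthesis stops. Some copies also make a longer, polyadenylated form in cells that have left the cycle. The developing cortex holds both states side by side, since radial glia and intermediate progenitors divide while the neurons they produce do not.

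The genes lay at few places in the genome (GRCm39). Chromosome 13 held 50 of them between positions 21899933 and 24118834, chromosome 3 held 10, chromosome 11 held 3 and chromosome 6 held 1, *H4c16*. A stem-loop with arms of 6 bases and a loop of 4 bases was found within 150 bases after the stop codon in 58 genes, beginning 22 to 59 bases after it. The 16 bases of the stem-loop were identical in 37 genes of the H2A, H2B and H3 classes. Of the 12 H4 genes with a stem-loop, 8 shared a second version with a different stem, 2 (*H4c9* and *H4c14*) had that stem with a different loop and 2 (*H4c2* and *H4c11*) had another stem again. In addition, 9 other H2A, H2B and H3 genes had the common stem with a different loop, which was the same in 8 of them and different again in *H2ac20*. The examples below show these versions except that of *H4c2* and *H4c11*, since this element is what sets these mRNAs apart from other mRNAs. Capitals mark the stem-loop, with 5 bases on either side.
H2bc6: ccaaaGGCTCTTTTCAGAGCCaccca
H2ac25: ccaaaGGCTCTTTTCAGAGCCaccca
H3c3: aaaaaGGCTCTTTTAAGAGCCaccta
H2ac20: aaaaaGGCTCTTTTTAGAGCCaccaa
H4c4: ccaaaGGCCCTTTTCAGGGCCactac
H4c14: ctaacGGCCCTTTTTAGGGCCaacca

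These elements lay in the 3′ untranslated region of each gene, at chr13:23769509-23769534 (minus strand) for *H2bc6*, chr11:58845993-58846018 (plus) for *H2ac25*, chr13:23929025-23929050 (minus) for *H3c3*, chr3:96127729-96127754 (minus) for *H2ac20*, chr13:23765928-23765953 (plus) for *H4c4* and chr3:96170250-96170275 (minus) for *H4c14*. In 23 genes the annotation ran more than 100 bases past the stem-loop, a form called long here. *H2ac25* had 1643 annotated bases past it, *H4c14* 1257 and *H2bc6* 2919. In 35 genes no long form was annotated, and in 6 no stem-loop was found by the search.

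Nuclei with 1500 to 60000 transcripts (unique molecular identifiers) were retained, which left 5640 in the library of Dnmt1 KO replicate 1, 12064 in KO replicate 2, 7047 in control replicate 1 and 4905 in control replicate 2. A nucleus was called cycling when it held 4 or more transcripts of *Mki67* and *Top2a* together, genes of dividing cells. By this rule 772, 1301, 816 and 510 nuclei cycled, or 13.7%, 10.8%, 11.6% and 10.4%. Counts were summed per library over the cycling and over the other nuclei, since nuclei of 1 library are not replicates. Levels are given as CPM (counts per 1000000 transcripts of the same sum). Median depth was 12274 to 12401 transcripts per nucleus in batch 1 and 21140 in control replicate 2. Barcodes above the upper limit held 1.35% and 4.37% of transcripts in the KO libraries and 19.2% and 29.4% in the controls. No retained barcode was shared between libraries. *Dnmt1*, the targeted gene, stood at 125 and 97.7 CPM in cycling nuclei of KO replicates 1 and 2 and at 113 and 112 CPM in the controls. In other nuclei it stood at 50.8 and 41.0 CPM in the KO libraries and at 50.8 and 49.2 CPM in the controls. In the few nuclei with *Sst* and *Gad2* transcripts (16 and 136 in the KO libraries, 40 and 27 in the controls) it stood at 76.1 and 46.1 CPM against 81.2 and 66.5 CPM, again with overlap. A loss of *Dnmt1* transcript was therefore not seen in any of these sums (cycling nuclei log2 -0.01, SE 0.14, adjusted p = 0.99, and other nuclei log2 -0.14, SE 0.13, adjusted p = 0.79, with edgeR). The sums cannot settle whether deletion took place, since most nuclei were not targets and loxP sites flank only part of the gene. The study reports lower *Dnmt1* transcript in sorted tdTomato-positive cells of a younger embryonic cortex, and lower DNMT1 protein in such cells.

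Histone transcripts were rare in every library. The cycling and other nuclei together held 14407 of them. These are counts in nuclei, and how well mRNAs without a poly(A) tail were captured was not given in the sources used here. Cycling nuclei of the KO libraries held 1.92 and 1.52 histone transcripts per nucleus on average and those of the controls 2.09 and 3.20. Other nuclei held 0.260 and 0.219 in the KO libraries and 0.327 and 0.445 in the controls. *H2bc6* alone gave 4324 transcripts (30.0%), followed by *H2ac25* with 2049 (14.2%), *H2bc4* with 902 and *H2bc27* with 743. No transcript was counted for 7 genes (*H2ac1*, *H2ac18*, *H2ac19*, *H2ac23*, *H2bc1*, *H2bc23* and *H2bc24*), and 9 more had fewer than 20. *H2ac1* and *H2bc1* encode the testis-specific forms of H2A and H2B. The other 5 without transcripts shared most of their sequence with other histone genes. At most 11.01% of the 60-base windows of their canonical transcripts were unique among the histone transcripts. In all, 31 of the 64 genes had fewer than 50% unique windows, so counts of single genes among them are uncertain where reads could fit several copies. The treatment of such reads was not given in the sources used here.

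The first question was whether the histone genes were higher in cycling nuclei. Summed over all 64 genes, cycling nuclei held 133 and 100.0 CPM in the KO libraries and 121 and 135 CPM in the controls. Other nuclei held 19.7 and 15.4 CPM in the KO libraries and 23.6 and 19.4 CPM in the controls. The lowest cycling value was thus above the highest value of the other nuclei, and the ratio within a library was 6.33 ± 0.829 (SD, n = 4). Barcodes with at most 100 transcripts, too few to count as nuclei here, stood at 31.2, 23.5, 28.3 and 33.5 CPM in the same order of libraries. The other nuclei were below that level in all 4 libraries and the cycling nuclei above it. This did not hold for every class. Other nuclei were above these barcodes for H2A genes in control replicate 1 (7.89 against 6.54 CPM) and for H4 genes in KO replicate 1 (2.74 against 2.62 CPM) and control replicate 1 (4.37 against 3.06 CPM).

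The classes differed in the size of this ratio. H3 genes, which encode the histone carrying many of the methylated lysines, stood at 16.6, 12.7, 14.9 and 18.7 CPM in cycling nuclei of KO replicates 1 and 2 and control replicates 1 and 2, and at 0.872, 0.471, 1.28 and 0.854 CPM in the others. The H3 ratio was 11.7 to 26.9. H2B genes stood at 76.4, 59.98, 59.96 and 71.6 CPM in cycling nuclei and at 11.1, 9.43, 10.1 and 9.15 CPM in other nuclei, a ratio of 5.95 to 7.83. H4 genes stood at 18.1, 14.5, 17.6 and 21.8 CPM against 2.74, 2.17, 4.37 and 3.30 CPM, a ratio of 4.02 to 6.68. H2A genes stood at 22.2, 12.8, 28.4 and 22.7 CPM against 5.03, 3.31, 7.89 and 6.11 CPM, a ratio of 3.60 to 4.41. The H3 ratio was the highest and the H2A ratio the lowest in each of the 4 libraries, which is a description with no test. The low H2A ratio rested on *H2ac25*. Without it, a choice made after the levels were seen, the H2A ratio was 17.0, 13.4, 10.3 and 19.6 in the same order of libraries. In each library this was below the H3 ratio and above the H2B and H4 ratios. No gene was left out of those classes, which kept genes with little or no rise such as *H2bc27*, *H4c14* and *H4c16*. This order therefore compares classes that were not treated alike.

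**Figure D1:**
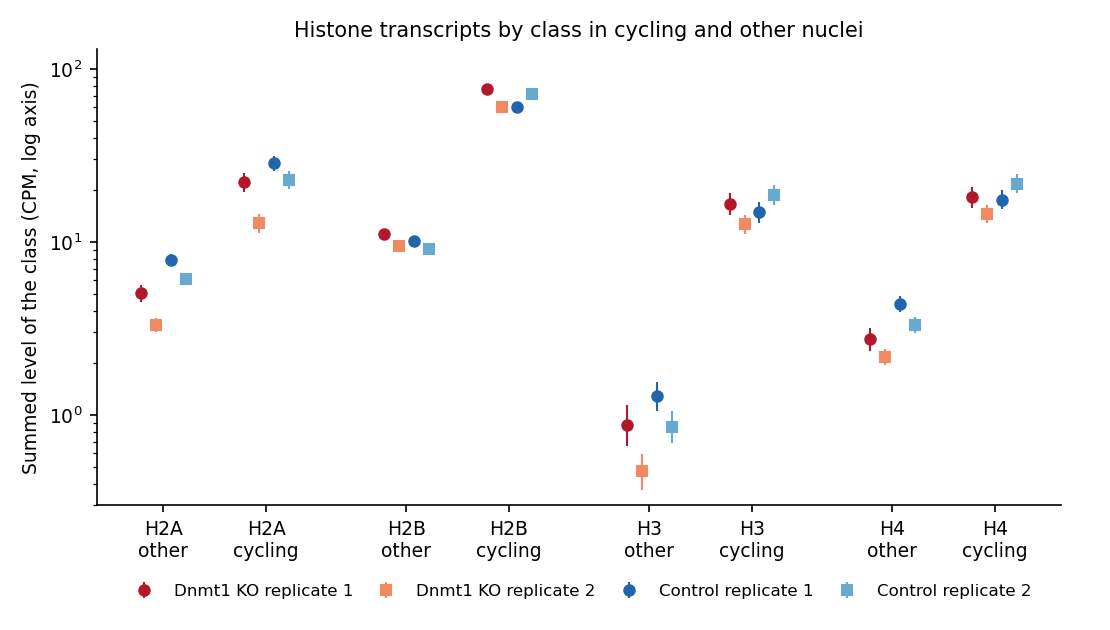
Summed level of each histone class (CPM, log axis) in other and cycling nuclei of the 4 libraries. Points are libraries and bars are exact 95% Poisson intervals, which cover counting error only. All 4 cycling points of a class lie above its 4 other points, with the widest gap for H3.

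The level also followed the number of *Mki67* and *Top2a* transcripts in a nucleus. With 0 such transcripts the 64 genes summed to 18.7, 14.8, 23.1 and 18.7 CPM in KO replicates 1 and 2 and control replicates 1 and 2. At 2 to 3 they summed to 37.3, 23.0, 28.7 and 30.2 CPM, and at 4 to 7 to 67.8, 55.8, 48.7 and 54.9 CPM. At 8 to 15 they reached 110, 79.7, 102 and 69.1 CPM, and at 32 or more 158, 116, 149 and 180 CPM. The level was higher at each of these steps than at the one before it in all 4 libraries. From nuclei with 16 to 31 to those with 32 or more it changed little in the batch 1 libraries (147 to 158, 116 to 116 and 145 to 149 CPM), while control replicate 2 went from 149 to 180 CPM. H3 genes did not follow this last step in the KO libraries, where they went from 20.8 to 16.3 CPM and from 16.7 to 13.0 CPM. In the controls they went from 16.6 to 19.3 CPM and from 22.5 to 26.5 CPM, and control replicate 2 had been at only 4.77 CPM at 8 to 15 transcripts. Nuclei with more of these transcripts were also deeper, with medians of 16777 to 24686 transcripts at 32 or more against 9174 to 17552.5 at 4 to 7. The part of depth in the levels was not tested.

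**Figure D2:**
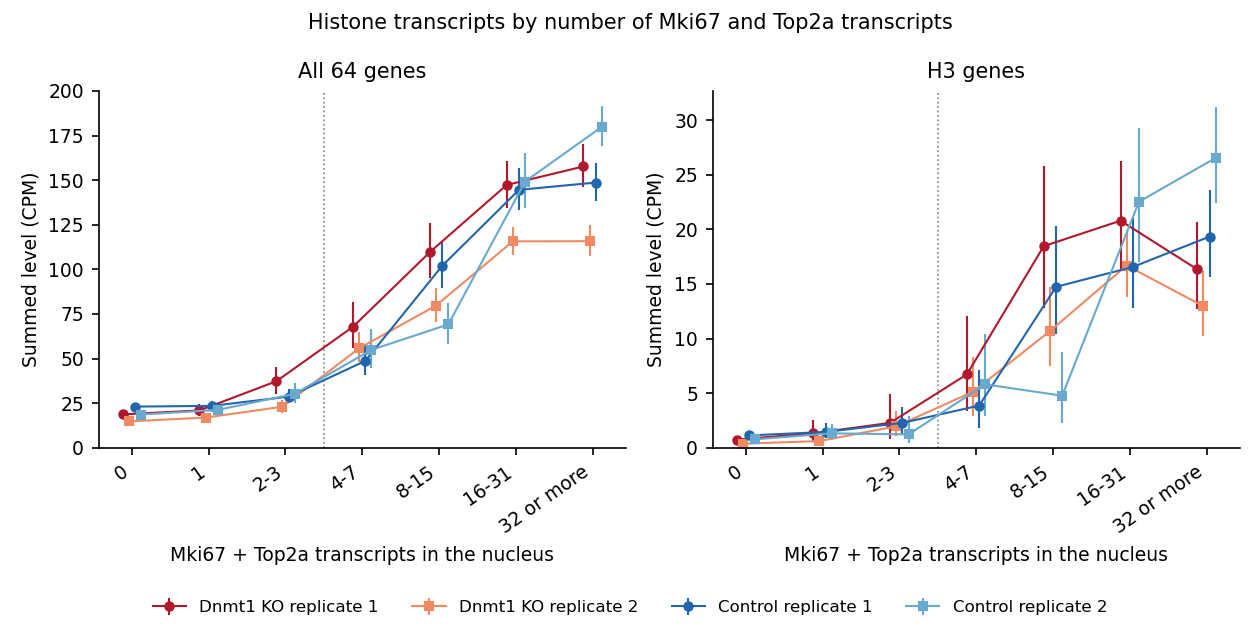
Summed level (CPM) of all 64 genes (left) and of the H3 genes (right) against the number of Mki67 and Top2a transcripts in a nucleus. Points are libraries, bars are exact 95% Poisson intervals (counting error only), and the dotted line marks the limit of 4 transcripts for cycling nuclei. All 4 lines on the left climb from 14.8 to 23.1 CPM at 0 transcripts to 116 to 180 CPM at 32 or more.

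For single genes the quasi-likelihood test of edgeR was run on the sums of cycling and other nuclei, with the library as block and Benjamini-Hochberg adjustment over 18531 genes. The filter on low counts kept 40 of the 64 histone genes, and 37 of them were higher in cycling nuclei at adjusted p below 0.05. Of all genes tested, 31.6% were called higher. Some of the 40 passed the filter only through cycling nuclei, so the 24 genes left out have to be counted in. Of these, 7 had no transcript and 17 had 229 transcripts in cycling and 154 in other nuclei. With no filter 57 genes were fitted, 56 had a higher estimate in cycling nuclei and 48 were called. In that fit 5081 of all 36772 genes were called higher. No histone gene was called lower. The median log2 fold change of the 40 genes was 3.27, against -0.0045 over all genes tested. Fold changes of single genes are estimates of edgeR on counts scaled by TMM, which are smaller here than ratios of CPM, since scaling by library totals put the median of all genes at log2 0.30.

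By class, 7 of 8 H2A, 11 of 12 H2B, 9 of 9 H3 and 10 of 11 H4 genes tested were called higher. The classes hold 20, 19, 12 and 13 genes in all. These counts and the class medians cover only those that passed the filter on low counts. The median log2 fold change was 3.45 for H2A, 3.35 for H2B, 3.89 for H3 and 2.35 for H4. Among the genes tested the 5 largest were those of *H3c8* (5.44, SE 0.62), *H2bc7* (4.82, SE 0.47), *H3c14* (4.59, SE 0.34), *H2bc9* (4.48, SE 0.61) and *H3c2* (4.22, SE 0.51), with adjusted p from edgeR of 3.7e-05 to 0.00067. These genes were nearly absent from other nuclei. *H3c8* had 9, 24, 6 and 20 transcripts in cycling nuclei of KO replicates 1 and 2 and control replicates 1 and 2 and 0, 1, 4 and 2 in the much larger number of other nuclei. *H2bc7* had 9, 12, 7 and 10 against 0, 3, 2 and 2. *H3c2* had 11, 13, 13 and 22 against 0, 2, 8 and 8. No stem-loop was found for *H3c8*, while *H2bc7* and *H3c2* carry the common version and have no long form. Of the genes too low to test, *H2ac11* had 4, 4, 3 and 4 transcripts in cycling nuclei and 0 in the other nuclei of all 4 libraries, where a count of 0 allows up to 3 transcripts per library.

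The most abundant H3 gene, *H3c4*, had 65, 96, 75 and 46 transcripts in cycling nuclei and 17, 35, 29 and 25 in other nuclei of KO replicates 1 and 2 and control replicates 1 and 2. The estimated rise was 14.8-fold (log2 3.89, SE 0.18, adjusted p = 6.8e-06 with edgeR). *H3c3* and *H3c1*, next in abundance in this class, rose by log2 4.18 (SE 0.39) and 3.68 (SE 0.34). Among H2B genes, *H2bc4* had 170, 195, 123 and 92 transcripts in cycling and 99, 74, 79 and 70 in other nuclei, with an estimated rise of 9.78-fold (log2 3.29, SE 0.21). Among H2A genes, *H2ac15* rose 8.38-fold (log2 3.07, SE 0.20) and *H2ac4* 15.1-fold (log2 3.92, SE 0.26). Among H4 genes, *H4c4* had 36, 55, 62 and 56 transcripts against 30, 79, 61 and 45 and rose 5.60-fold (log2 2.49, SE 0.19), and *H4c9* rose 7.70-fold (log2 2.94, SE 0.20). The 11 H4 genes tested spanned log2 0.88 to 3.25 and the 9 H3 genes 2.88 to 5.44, so the classes overlapped gene by gene.

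*H2bc6* stood apart by its amount. It had 393, 621, 451 and 505 transcripts in cycling nuclei and 388, 996, 460 and 510 in other nuclei, or 35.3, 31.4, 31.97 and 41.8 CPM against 6.04, 6.51, 5.34 and 5.07 CPM. The ratio of its mean CPM was 6.12. The edgeR estimate of 4.93-fold (log2 2.30, SE 0.11, adjusted p = 8.5e-06) was below the median of the histone genes tested. Its annotation spans 38545 bases (chr13:23766595-23805139, minus strand, with introns), and 4 other genes, among them *H4c4* and the linker histone gene *H1f4*, overlap it. Whether intronic reads were counted for it was not given in the sources used here. Per kilobase of canonical transcript it still had the highest mean level of all 64 genes in cycling nuclei, 9.92 CPM per kb, followed by *H2bc18* (7.42), *H2ac15* (6.95), *H2bc4* (6.07) and *H2ac4* (5.65). In other nuclei the order was different. *H2bc27* led with 2.67 CPM per kb, followed by *H2ac25* with 2.09 and *H2bc6* with 1.62.

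A few histone genes did not rise or rose little. *H2bc27* had 24, 29, 26 and 26 transcripts in cycling nuclei of KO replicates 1 and 2 and control replicates 1 and 2 and 102, 183, 159 and 194 in other nuclei. In CPM these were 2.16, 1.47, 1.84 and 2.15 against 1.59, 1.20, 1.85 and 1.93, values that overlap (log2 fold change -0.09, SE 0.16, adjusted p = 0.65 with edgeR). Its estimate changed sign with the scaling, to 0.22 with library totals. *H2ac25* had 7.91, 4.40, 7.94 and 4.47 CPM in cycling and 4.19, 2.68, 5.89 and 5.18 CPM in other nuclei, with overlap (log2 0.17, SE 0.19, adjusted p = 0.46). *H4c16* had 1.08, 0.606, 0.992 and 1.49 CPM against 0.327, 0.242, 0.940 and 0.407 CPM. It was higher in cycling nuclei of each library, and its log2 fold change of 0.88 (SE 0.34) did not pass the threshold (adjusted p = 0.060 with edgeR). It passed in 6 alternatives, among them the fit without control replicate 1 (log2 1.32). *H4c14* rose 3.09-fold (log2 1.63, SE 0.24, adjusted p = 0.00091) and *H4c12* 4.75-fold (log2 2.25, SE 0.29, adjusted p = 0.0005).

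The 4 genes with the smallest change had some features in common, looked up after their values were seen. *H2bc27* and *H2ac25* lie within the small group on chromosome 11, *H4c16* is the single gene on chromosome 6 and *H4c14* is on chromosome 3, so none is in the chromosome 13 cluster. Each has a long form, and all but *H2bc27* run more than 1000 bases past the stem-loop. *H4c12*, which had the next smallest change, shared neither feature. It lies in the chromosome 13 cluster and has no long form annotated. Together *H2ac25* and *H2bc27* gave 22.5% and 8.39% of histone transcripts in other nuclei, and 5.02% and 1.54% in cycling nuclei. A long form was also found among genes with a large change. The filter on low counts kept 20 of the 21 genes with a long form and any transcript but only 17 of the 30 without one, so the groups were compared with no filter. The 21 genes with a long form then had a median log2 fold change of 2.86, and 18 were called higher. The 30 genes without one had a median of 3.17, and 25 were called higher. In that fit 5081 of all 36772 genes were called higher. In other nuclei the genes with a long form gave 84.6% of histone transcripts (16.46 ± 2.42 CPM, SD, n = 4) and those without one 11.5% (2.31 ± 0.863 CPM). In cycling nuclei the shares were 69.3% and 23.0%. Long genes also present more bases to capture. The parts of length and of the capture of mRNAs without a poly(A) tail in these shares were not tested.

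**Figure D3:**
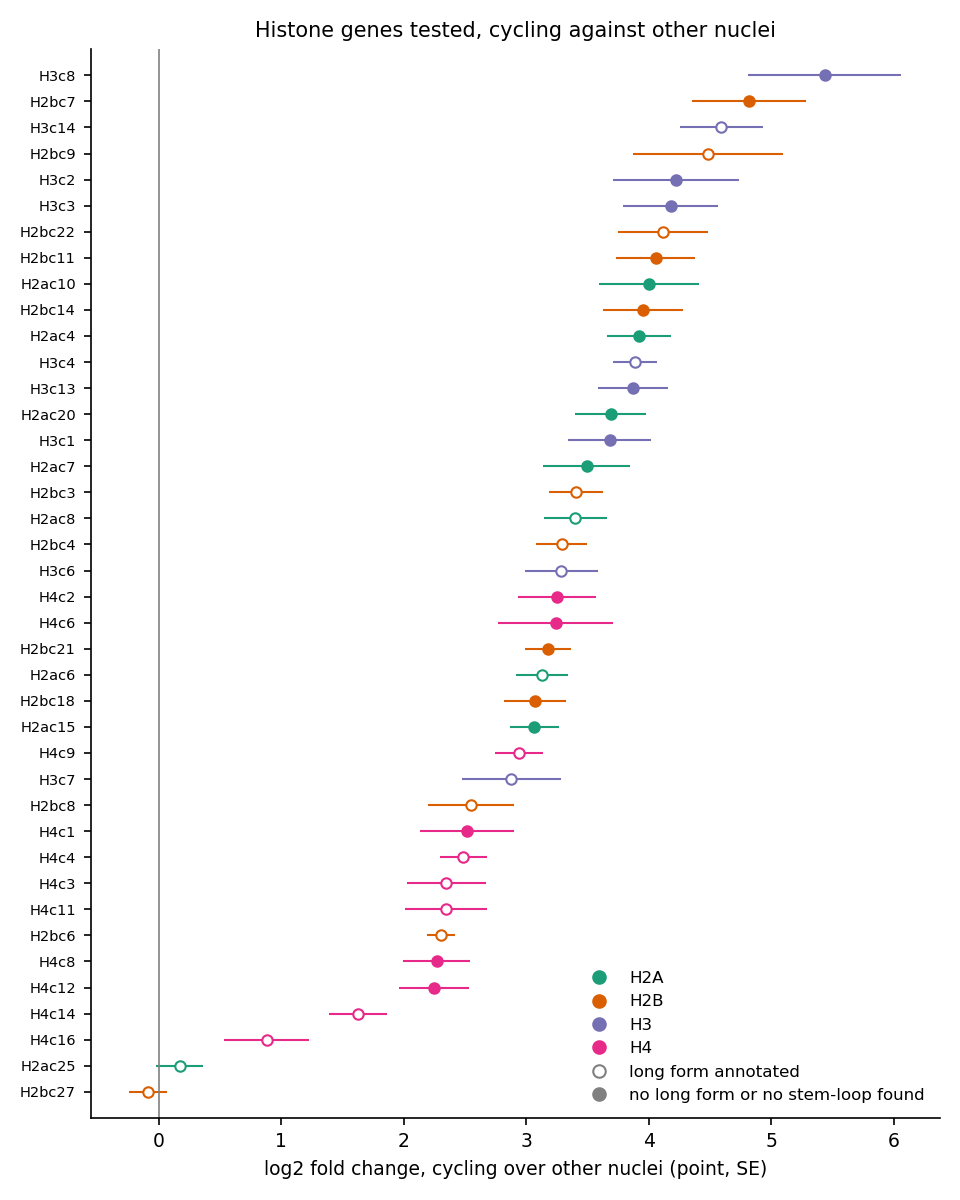
Log2 fold change of cycling over other nuclei (horizontal axis) for the 40 histone genes tested, ordered by size. Points are edgeR estimates with SE, colours are histone classes, and open points are genes with an annotated long form. The lowest 4 points, from -0.09 to 1.63, are open, and the remaining open points are spread among the filled ones up to 4.59.

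The promoters were compared where RefSeq gave them (GRCm38.p6, 250 bases before to 50 bases after the start), for 52 of the 64 genes. The octamer ATGCAAAT, the site of POU-family factors, was present on either strand in 12 of the 52 promoters against 1.75% of 27025 promoters of all genes. It was in 6 of 17 H2A and 6 of 14 H2B promoters and in none of the 10 H3 and 11 H4 promoters. CCAAT was present in 84.6% against 37.9% of all promoters, in every H2A, H2B and H3 promoter and in 3 of 11 H4 promoters. TATAAA was present in 57.7% against 14.2%. Several H2A and H2B genes face each other, and 9 such pairs shared 220 to 279 bases of these windows, so their promoters are not independent. The promoters of *H2bc8*, *H3c8* and *H4c4* are shown because they contrast these layouts among genes that rose in cycling nuclei. The *H2bc8* window shares 279 bases with that of *H2ac8*, and *H4c4* carries an inverted CCAAT beside TATAAA. *H3c8* had the largest estimated rise among the genes that passed the filter on low counts. Capitals mark the octamer, CCAAT and TATAAA on either strand, and a match is only a match of letters.
H2bc8: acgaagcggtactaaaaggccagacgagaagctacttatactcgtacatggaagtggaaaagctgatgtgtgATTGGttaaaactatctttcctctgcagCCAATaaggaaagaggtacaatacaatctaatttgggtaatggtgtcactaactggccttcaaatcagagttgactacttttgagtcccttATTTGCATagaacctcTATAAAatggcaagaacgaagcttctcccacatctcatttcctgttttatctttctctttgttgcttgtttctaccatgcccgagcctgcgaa
H3c8: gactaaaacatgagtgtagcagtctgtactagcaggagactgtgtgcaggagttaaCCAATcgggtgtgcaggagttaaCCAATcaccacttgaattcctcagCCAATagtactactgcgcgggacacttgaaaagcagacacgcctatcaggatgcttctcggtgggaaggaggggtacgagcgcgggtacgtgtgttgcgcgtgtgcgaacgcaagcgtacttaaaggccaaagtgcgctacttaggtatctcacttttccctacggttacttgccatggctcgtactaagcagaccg
H4c4: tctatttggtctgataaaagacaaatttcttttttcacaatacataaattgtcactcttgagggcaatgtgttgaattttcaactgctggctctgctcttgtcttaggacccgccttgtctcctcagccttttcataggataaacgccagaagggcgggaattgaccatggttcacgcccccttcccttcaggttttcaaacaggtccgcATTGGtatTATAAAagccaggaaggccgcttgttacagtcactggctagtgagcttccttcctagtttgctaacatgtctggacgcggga

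These windows lie at chr13:23571150-23571449 (plus strand), chr13:23535168-23535467 (plus) and chr13:23581318-23581617 (plus) of GRCm38.p6, a different build from that of the counts.

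Genes that work with the core histones were read from the same fit. All 7 linker histone genes tested, whose proteins bind between nucleosomes, were higher in cycling nuclei, with log2 fold changes of 1.59 to 4.02. *H1f0* stood at 55.4 ± 7.48 CPM in cycling and 15.1 ± 3.23 CPM in other nuclei (SD, n = 4), and *H1f4* at 30.4 ± 2.14 and 4.37 ± 1.502 CPM. The replication-independent variants, which are made outside S phase as well, moved less uniformly. Of 9 tested, 7 rose, 1 fell and *H3f3a*, a gene for H3.3, was not called (log2 0.01). *Macroh2a1* rose by log2 0.16 (SE 0.05) and *Macroh2a2*, a second gene of the large macroH2A variants, was the one that fell by 0.22 on the log2 scale (SE 0.06). The median log2 fold change of these 9 was 0.46, against 3.27 for the replication-dependent genes tested.

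Of 16 genes for the making of histone mRNA, 10 rose and none fell. *Pou2f1*, which encodes an octamer-binding factor, rose by log2 0.83 (SE 0.07) and *Srrt*, an RNA-processing factor, by 0.41 (SE 0.05). *Slbp*, the stem-loop binding protein, and *Npat*, the coactivator of histone genes, were looked up after the values were seen and rose by log2 1.70 (SE 0.07) and 0.65 (SE 0.05). Of 16 histone chaperone and deposition genes, 14 rose and none fell. *Nasp*, a chaperone of H3 and H4, rose by log2 1.09 (SE 0.05), and *Hira*, which deposits H3.3, was not called (log2 0.04, SE 0.05).

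The next question was whether histone transcripts tracked S phase within cycling nuclei. The cycling nuclei of each library were split at that library's median share of S-phase transcripts among S-phase and G2/M transcripts (lists of 34 and 36 genes), which was 25.4% and 24.2% in the KO libraries, below the 34.4% and 30.8% of the controls. The value at which nuclei were split thus differed between genotypes. Nuclei above the median are called S-leaning and the rest G2M-leaning, names that are relative to each library. In S-leaning nuclei the S-phase list stood at 3033 and 2789 CPM in the KO libraries and 2822 and 2601 CPM in the controls. The G2/M list stood there at 3103 and 2910 CPM against 2204 and 2221 CPM. It was thus above the S-phase list in both KO libraries and below it in both controls. *Dnmt1*, which is in neither list, was higher in S-leaning nuclei (162 ± 18.7 against 67.4 ± 10.4 CPM, SD, n = 4, log2 1.22). S-leaning nuclei had fewer *Mki67* transcripts (555 ± 66.7 against 1065 ± 99.0 CPM) and were shallower, with medians of 11876 to 18356 against 13351 to 22463 transcripts.

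The histone sum was lower in S-leaning than in G2M-leaning nuclei in all 4 libraries. It stood at 118, 90.2, 102 and 103 CPM in S-leaning nuclei of KO replicates 1 and 2 and control replicates 1 and 2 and at 147, 109, 137 and 162 CPM in G2M-leaning nuclei. H2B genes carried most of this, with S-leaning over G2M-leaning ratios of 0.713, 0.670, 0.659 and 0.567, and H2A genes had ratios of 0.597, 0.894, 0.792 and 0.748. H3 ratios were 1.16, 1.04, 0.938 and 0.726 and H4 ratios 1.34, 1.46, 0.825 and 0.687. H3 and H4 genes were thus on both sides of 1, above it in both KO libraries and below it in both controls. Without *Pola1* in the S-phase list, an alternative added after seeing the data, the H3 ratio of KO replicate 2 was 0.984. The G2/M list also moved with genotype, at 5847 and 5538 CPM in cycling nuclei of the KO libraries and 4249 and 4856 CPM in those of the controls. Of its 36 genes 34 had a positive log2 fold change (KO over control, median 0.33), and none was called. Its part in the H3 and H4 ratios was not tested.

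With edgeR (13709 genes, library as block) 19 histone genes were tested, 7 were called lower in S-leaning nuclei and none higher. Of all genes tested 11.3% were called lower. The 7, named here after their values were seen, were *H2ac20*, *H2ac25*, *H2bc4*, *H2bc6*, *H2bc14*, *H2bc18* and *H2bc21*, all of the H2A and H2B classes. *H2bc6* had 158, 233, 154 and 169 transcripts in S-leaning nuclei and 235, 388, 297 and 336 in G2M-leaning nuclei, with a log2 fold change of -0.71 (SE 0.08, adjusted p = 0.00013). *H2bc4* had 60, 82, 45 and 34 against 110, 113, 78 and 58 (log2 -0.61, SE 0.13, adjusted p = 0.0056). *H2ac20* had 5, 15, 14 and 7 against 14, 23, 25 and 31 (log2 -1.08, SE 0.30, adjusted p = 0.025). All 3 genes were lower in S-leaning nuclei of each library. In CPM *H2bc6* stood at 23.8 to 29.9 in S-leaning and 38.3 to 52.2 in G2M-leaning nuclei and *H2ac20* at 0.943 to 2.16 and 2.27 to 4.82, with no overlap across libraries. The other 5 genes overlapped, among them *H2bc4* at 6.01 to 11.3 and 9.01 to 18.9 CPM and *H2ac25* at 3.62 to 6.18 and 4.50 to 10.1 CPM. The median over the 19 genes was -0.42, against -0.0004 over all genes.

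This result depended on how cycling nuclei were chosen and on the test. With a limit of 2 *Mki67* and *Top2a* transcripts 12 of 20 histone genes were called lower, where 10.8% of all genes were. With a limit of 8 only *H2bc6* of 18 was called, where 9.34% of all genes were, and it was also the only one of 19 with DESeq2, where 6.54% were. In these last fits the share of histone genes called lower was thus not above that of all genes. The median log2 fold change with DESeq2 was -0.41, against -0.42 in the main fit, with 16 of 19 genes lower in each. At a limit of 8 the S-leaning over G2M-leaning ratio of the histone sum was 0.821 to 0.972 and that of H2B genes 0.744 to 0.812. H2A ratios were then on both sides of 1 (0.723, 1.12, 1.04 and 0.852), and with the filter on mapped reads the H2A ratio of control replicate 2 was 1.23. Of all genes tested 11.7% were called higher in S-leaning nuclei. Of the pathway lists, 11 of 15 chaperone and deposition genes tested were higher in S-leaning nuclei and none lower, among them *Nasp* (log2 0.42, SE 0.06). Of 15 genes for making histone mRNA 6 were higher and 2 lower. *Slbp* was higher (log2 1.52) and *Pou2f1* lower (log2 -0.23).

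**Figure D4:**
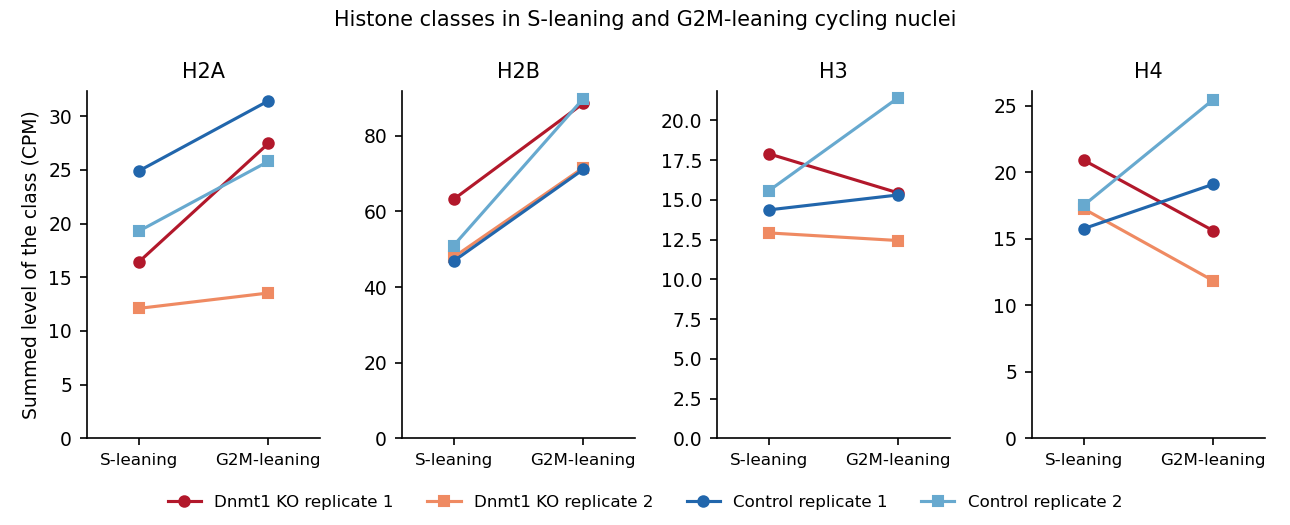
Summed level (CPM) of each histone class in S-leaning and G2M-leaning cycling nuclei. Each line joins the 2 values of 1 library. All lines rise to the right for H2A and H2B. For H3 and H4 the 2 control lines rise and the 2 KO lines fall.

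Cycling nuclei were also split by *Eomes*, a transcription factor gene of intermediate progenitors. Nuclei with 2 or more *Eomes* transcripts (75 and 148 in the KO libraries, 107 and 109 in the controls) held 119, 105, 97.9 and 132 CPM of histone transcripts. Nuclei with none held 137, 100.5, 128 and 138 CPM. The ratio was 0.869, 1.05, 0.768 and 0.954, so the libraries did not move together. None of the 17 histone genes tested was called with edgeR, where 24.1% of all 13170 genes were called in either direction. The smallest adjusted p among the 17 was 0.17, none had an unadjusted p below 0.05, and DESeq2 called 0. Without the upper limit on transcripts, 1 of 31 histone genes was called higher (*H2bc27*) and 5 lower (*H2bc4*, *H2bc6*, *H3c4*, *H3c14* and *H4c9*). In that fit 13.9% of all 15638 genes were called higher and 14.5% lower, so the share of histone genes called lower was near that of all genes.

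The last question was whether genotype changed the histone genes. In cycling nuclei the histone sum was 117 ± 23.6 CPM in the KO libraries and 128 ± 9.88 CPM in the controls (SD, n = 2), and the libraries overlapped. H2A genes stood at 17.5 ± 6.61 against 25.6 ± 4.01 CPM, H2B at 68.2 ± 11.6 against 65.8 ± 8.25, H3 at 14.7 ± 2.78 against 16.8 ± 2.69 and H4 at 16.3 ± 2.58 against 19.7 ± 2.95. H2A values were 22.2 and 12.8 CPM in the KO libraries and 28.4 and 22.7 CPM in the controls, which did not overlap, and the other 3 classes overlapped. This depended on single genes. H2A values overlapped when *H2ac4* was left out (21.1 and 11.6 against 24.2 and 18.5 CPM), and also without *H2ac13* or *H2ac20*, while H4 values no longer overlapped without *H4c9* or *H4c14*. These genes were singled out after their values were seen. Without the upper limit on transcripts the log2 ratios of the H2B, H3 and H4 sums (KO over control) were all positive. In fits with edgeR 39 histone genes were tested and none was called, as for all 15632 genes (0.0% called, 1347 at unadjusted p below 0.05, and 65 genes but no histone gene with DESeq2). Of the 39 genes 2 had an unadjusted p below 0.05 and the lowest adjusted p was 0.58. Of the 39 genes 28 had a negative log2 fold change (KO over control), as did 52.4% of all genes. Their median was -0.26 against -0.0153 over all genes. It was 0.05 without the upper limit on transcripts, where 323 genes were called higher and 204 lower with no histone gene among them, and -0.05 without KO replicate 2. It was -0.57, with 35 of 43 genes negative, without KO replicate 1 and -0.39 without control replicate 1.

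In cycling nuclei 11 of the 39 genes had both KO libraries below both controls, and 3 had both above. Over all genes tested these shares were 24.0% and 18.0%. Such counts follow from the small number of libraries and are not tests. The gene with the largest difference was *H2ac4*, with 12 and 24 transcripts in the KO libraries and 59 and 51 in the controls, or 1.08 and 1.21 CPM against 4.18 and 4.22 CPM. Its log2 fold change was -1.84 (SE 0.28, adjusted p = 0.58 with edgeR). It passed the threshold only in the fit with no filter on low counts, in which 537 genes were called higher and 345 lower. Only 43.0% of its 60-base windows were unique among histone transcripts. *H2bc21*, named after its value was seen, went the other way with 10.96 and 7.12 CPM in the KO libraries against 5.17 and 4.30 CPM in the controls (log2 0.93, SE 0.29, adjusted p = 0.58), and passed in that same fit. *H2bc6* had a small estimate (log2 -0.13, SE 0.16) that changed sign without the upper limit (0.54) and *H2bc4* stood at 15.3 and 9.85 against 8.72 and 7.61 CPM (log2 0.62, SE 0.26).

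In other nuclei the histone sum was 17.5 ± 3.07 CPM in the KO libraries and 21.5 ± 2.97 CPM in the controls, and KO replicate 1 (19.7) lay above control replicate 2 (19.4). H2A genes stood at 5.03 and 3.31 CPM against 7.89 and 6.11 CPM and H4 genes at 2.74 and 2.17 against 4.37 and 3.30 CPM, both without overlap, while H2B and H3 genes overlapped. No single gene left out ended the separation of H2A or H4 genes. The overlap of the other classes depended on single genes. Without *H2bc27* the H2B values were 9.49 and 8.24 CPM in the KO libraries, above the 8.22 and 7.22 CPM of the controls. Without *H2bc6*, in contrast, the mean of the H2B values was lower in the KO libraries than in the controls. Without *H3c3* the H3 values were 0.779 and 0.425 CPM, below the 1.14 and 0.825 CPM of the controls, and they also separated without *H3c7* or *H3c14*. Of 28 histone genes tested with edgeR none was called. Of all 21026 genes 0.0% were called, 1609 had an unadjusted p below 0.05, and DESeq2 called 218 genes with no histone gene among them. Of the 28 genes 4 had an unadjusted p below 0.05 and the lowest adjusted p was 0.64. A negative log2 fold change was found for 24 of the 28, as for 50.5% of all genes, with a median of -0.67 against -0.0032 over all genes. Both KO libraries were below both controls for 12 of the 28 (20.8% of all genes) and above for 2 (19.7% of all genes). The median was -0.17, with 18 of 28 genes negative, when control replicate 1 was left out. The order in the plot of genotype differences was led by *H2ac4*, with 3 and 8 transcripts in the KO libraries and 29 and 16 in the controls (log2 -2.27, SE 0.55). *H2ac25* stood at 4.19 and 2.68 CPM in the KO libraries against 5.89 and 5.18 CPM in the controls (log2 -0.71, SE 0.26) and *H4c14* at 0.701 and 0.608 against 0.905 and 0.775 CPM (log2 -0.37, SE 0.26). *H2bc6* was the reverse, at 6.04 and 6.51 CPM in the KO libraries against 5.34 and 5.07 CPM in the controls (log2 0.26, SE 0.14).

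Other measures moved with these differences. Mitochondrially encoded transcripts stood at 126 and 139 CPM in other nuclei of the KO libraries and at 272 and 176 CPM in the controls, and all 10 such genes tested had negative log2 fold changes (median -0.79). Of 74 ribosomal protein genes 57 were negative (median -0.15), and so were all 7 linker histone genes (median -0.24). In cycling nuclei markers of ganglionic eminence progenitors stood at 37.6 and 97.8 CPM in the KO libraries and at 271 and 48.1 CPM in the controls. Markers of meningeal fibroblasts stood at 59.7 CPM in KO replicate 2 against 2.87 to 4.63 CPM in the other libraries. Markers of choroid plexus stood there at 48.8 CPM against 1.98 to 10.3 CPM. No gene of the lists of other cell types was at 0 in all 4 libraries. The forebrain and cortex list was present in each library, and its sum differed by genotype without overlap. It stood at 777 and 790 CPM in cycling nuclei of the KO libraries against 1113 and 1115 CPM in the controls. In other nuclei it stood at 1790 and 1958 CPM against 2430 and 3122 CPM. Its 8 genes did not move together. In cycling nuclei 6 had negative and 2 positive log2 fold changes (median -0.50). In other nuclei 5 were negative and 3 positive (median -0.19), and none was called in either set. The sum of radial glia markers was instead higher with KO in other nuclei, at 255 and 237 CPM in the KO libraries against 222 and 183 CPM in the controls. Of these 9 genes 7 were positive (median log2 0.33) and none was called. The part of these measures in the genotype differences was not tested. In these sums fewer cells of a type and less RNA per cell cannot be told apart, and batch 2 holds only control replicate 2, so no comparison within that batch was possible.

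**Figure D5:**
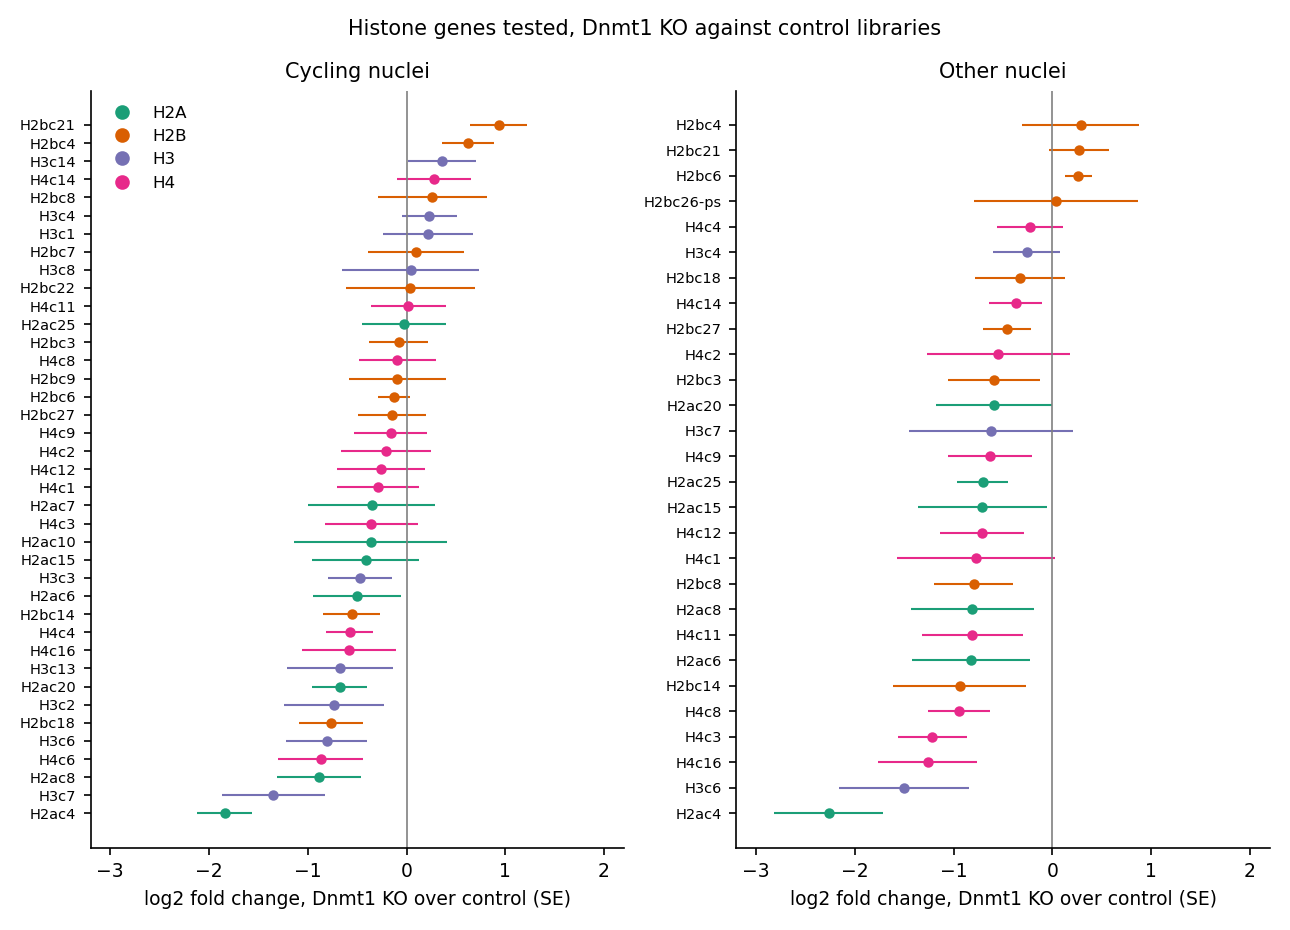
Log2 fold change of Dnmt1 KO over control libraries for the histone genes tested in cycling (39 genes, left) and other nuclei (28 genes, right), ordered by size. Points are edgeR estimates with SE and colours are histone classes. H2ac4 is lowest on both sides (-1.84 and -2.27), and none of the points passed the threshold.

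Whether the rise in cycling nuclei differed between genotypes was tested as an interaction. None of 40 histone genes was called with edgeR (0.0% of 18531 genes, 719 at unadjusted p below 0.05, none with DESeq2), and the lowest adjusted p was 1.0, with 0 histone genes at unadjusted p below 0.05. The estimate was larger in the KO libraries for 30 of the 40 genes, with a median of 0.44, against -0.0062 over all genes. Without control replicate 1 it was 0.20, with 23 of 43 genes larger. Without the upper limit on transcripts it was 0.78, with 38 of 42 genes larger, 9 at unadjusted p below 0.05 and none called. In nuclei with *Sst* and *Gad2* transcripts, which mark somatostatin interneurons, histone transcripts were few and got no test, with 1 and 37 transcripts in the KO libraries and 17 and 18 in the controls. These were 4.23 and 17.2 CPM against 20.6 and 26.0 CPM, so both KO libraries lay below both controls. The share of all genes that separated in this way was not computed for these nuclei. The exact 95% Poisson intervals, which cover counting error only, were 0.107 to 23.6 and 12.1 to 23.7 CPM in the KO libraries and 12.003 to 33.0 and 15.4 to 41.1 CPM in the controls, and they overlapped. Each histone value lay below that of barcodes with at most 100 transcripts in its library. The forebrain and cortex list also separated here (427 and 693 against 1139 and 1182 CPM). Markers of ganglionic eminence progenitors separated the other way (1598 and 1457 against 1371 and 1438 CPM). The set was not limited to nuclei that were not cycling. Its G2/M list stood at 288 and 489 CPM in the KO libraries and at 389 and 844 CPM in the controls. It was thus highest in control replicate 2, as was the histone level. The part of these measures was not tested.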

How the data were processed

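RNA of single nuclei was barcoded with Parse Evercode, a split-pool method. The authors processed the reads with Trailmaker on mm39 (GRCm39), per the labels and the study's methods, and deposited unfiltered, unnormalized counts of transcripts per barcode and gene, with other columns naming the barcodes and genes. The software version, the annotation release and the handling of introns, strand and reads that fit several genes were not given in the sources used here. The authors filtered and clustered these matrices with R 4.4.1 and Seurat 5.0.1.9001, and that output was not used here.

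Barcodes with 1500 to 60000 transcripts were retained. The study gives this range for reads, so a filter on mapped reads was an alternative. Doublets were not called, and leaving out the deepest 5% of barcodes was an alternative. Groups came from the sample titles. Counts were summed per library and set of nuclei and tested with edgeR 4.0.16 (quasi-likelihood, TMM, filterByExpr, R 4.3.3), with Benjamini-Hochberg adjustment over all genes tested and a threshold of 0.05. *Mki67* and *Top2a*, and the genes that defined a split, were left out of the test of that split. Class sums are CPM with exact 95% Poisson intervals (scipy 1.17.1), which cover counting error only. Sums over members got no test. DESeq2 1.42.0, library totals, no low-count filter, no upper limit, other limits for cycling nuclei, a replicate block and leaving out each library were alternatives.

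Gene models came from GENCODE M39. The stem-loop search asked for arms of 6 bases that pair and a loop of 4 bases. Uniqueness was the share of 60-base windows found in no other histone transcript of the 64 genes. The genes described singly were the 3 of each class with most transcripts and the most abundant genes of each pathway list. Of the genes tested, the 5 with the largest and the 5 with the smallest change in cycling nuclei were also described. Other genes are said to have been chosen after their values were seen. The members and lists were chosen with earlier results of these data known. Each library came from a separate brain, per the study. In the genotype fits without a block, p-values measure the spread between 2 brains of each genotype. The 2 control brains also differed in batch and depth, so that spread is not of brains alone. In the fits with the library as block, they measure the spread of within-library differences between the 4 libraries.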

Additional observations from a re-analysis of the deposited data

Results flagged for a closer look

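In the main setting H4 and H3 genes had ratios of S-leaning over G2M-leaning cycling nuclei on opposite sides of 1 in the 2 genotypes. These genes did not do so in every alternative below. The ratio of their summed CPM (S-leaning over G2M-leaning) for H3 genes was 1.16 (replicate 1) and 1.04 (replicate 2) with Dnmt1 KO, and 0.938 (replicate 1) and 0.726 (replicate 2) for controls. For H4 genes the KO values were 1.34 and 1.46 and the control values 0.825 and 0.687. The H3 ratios of KO replicate 2 (1.04) and control replicate 1 (0.938) were close to 1. Counting error in these ratios was not assessed, so the side of 1 on which they lay is uncertain. The difference between genotypes was not tested, since sums over chosen genes got no test. The share at which nuclei were split differed too, at 25.4% and 24.2% with Dnmt1 KO and 34.4% and 30.8% for controls. S-leaning nuclei held more G2/M than S-phase transcripts in both KO libraries and fewer in both controls. The part of this in the ratios was not tested. With cycling nuclei taken from 2 *Mki67* and *Top2a* transcripts, H3 ratios were 0.924, 0.610, 0.547 and 0.433 and H4 ratios 1.21, 0.894, 0.655 and 0.514 in the same order of libraries. From 8 transcripts they were 1.23, 1.26, 1.16 and 0.898 for H3 and 1.37, 1.66, 0.916 and 0.985 for H4. Only the H4 ratios of the 2 genotypes stayed on opposite sides of 1 there. With cycling nuclei chosen by rate the H4 ratios were 1.42, 1.56, 0.853 and 1.11, so control replicate 2 was then above 1, and the H3 ratios were 1.18, 1.11, 1.11 and 0.950, with control replicate 1 above 1. Without *Pola1* in the S-phase list, added after seeing the data, the H3 ratios were 1.21, 0.984, 0.845 and 0.650, with KO replicate 2 below 1, and the H4 ratios 1.49, 1.47, 0.807 and 0.690.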

How the results depend on the processing

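Of 390 alternative values of the main results, 354 stayed within their limits and 36 moved, and of 577 values of single genes 22 changed sign. In cycling against other nuclei the median log2 fold change of the histone genes was 3.58 with library totals (which put the median of all genes at 0.30), 2.84 without the upper limit and 3.01 with cycling nuclei from 2 transcripts. For log2 ratios of class sums, H2A was 1.62 without the upper limit, 1.69 from 2 transcripts, 2.10 from 8, 1.66 with TMM, 3.87 without *H2ac25* and 1.81 without *H2ac4* (both added after seeing the data), and H2B was 2.29, 2.48 (from 2) and 2.45 (TMM), and 2.94 without *H2bc6*. *H2bc27* changed sign with library totals (0.22), no upper limit (0.17) and the deepest 5% left out (0.0014). For genotype in cycling nuclei the unfiltered fit called 1 histone gene higher and 1 lower, and class log2 ratios without the upper limit were 0.75 (H2B), 0.55 (H3) and 0.24 (H4). In other nuclei the H2B ratio was -0.15 without *H2bc6*, and the median over leave-one-out fits ran from -1.06 to -0.17. Without the low-count filter 346 genes were called higher and 54 lower in other nuclei. In genotype fits without 1 library, 1 genotype had a single library, so calls of those fits are not given. For the interaction 227 genes were called higher and 907 lower without the upper limit, and 55 and 197 unfiltered, with no histone gene among them. By genotype in cycling nuclei, *H2ac25* changed sign by mapped reads (0.0701), from 8 transcripts (0.0445) and with the block (0.0002), *H2bc6* and *H4c9* without the upper limit (0.54 and 0.50) and *H2bc27* by mapped reads (0.0310). Leaving out 1 library turned the sign for 7 genes there, with ranges of -0.49 to 0.48 for *H2ac25* and -1.02 to 0.20 for *H2ac15* (positive without KO replicate 2 or control replicate 1), -0.29 to 0.0643 for *H2bc6* (positive without control replicate 2), -0.42 to 0.13 for *H2bc27* (without KO replicate 2), -0.52 to 0.17 for *H4c9* (without KO replicate 2 or control replicate 2), -0.30 to 0.67 for *H3c1* (negative without KO replicate 1) and -0.0550 to 0.71 for *H4c14* (negative without control replicate 1). In other nuclei the ranges were -1.30 to 0.31 for *H2ac15* and -0.51 to 0.12 for *H4c4* (positive without control replicate 1) and -0.74 to 0.93 for *H2bc4* (negative without KO replicate 1). Among S-leaning nuclei the histone genes called lower numbered 1 of 19 with DESeq2, 12 of 20 from 2 transcripts and 1 of 18 from 8. They numbered 3 of 18 by mapped reads (1120 of all 13077 genes), 4 of 33 without the upper limit (1289 of 15737) and 3 of 17 by rate (1386 of 13405). Leave-one-out fits called 3 to 5 of 16 to 20, and 1044 to 1173 of 13551 to 13998 genes in all. The median was -0.41 with DESeq2, -0.82 from 2, -0.13 from 8 and -0.20 by rate. DESeq2 called 940 genes higher and 897 lower there. For *Eomes* without the upper limit 1 was higher and 5 lower (median -0.43). The causes were not tested. Whether same-numbered libraries share a litter or day was not given in the labels. With 2 libraries per genotype, the correlation of their deviations (-0.138 in cycling and -0.0428 in other nuclei) cannot settle it. With the replicate block 0 genes were called in either set, with histone medians of -0.26 and -0.53, and the crossed pairing, added after seeing the data, also called 0. With 1.52 to 3.20 histone transcripts per cycling nucleus, low genes could not be tested at this depth.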
